A study of Homo sapiens with 6 samples.

Results

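The genes described here are those of the ATF4 amino acid response, with the tRNA synthetases that belong to it. They were taken from a list of 36 genes, of which 34 were measured, among 19775 genes with a probe set of their own on the array. These 34 genes had 61 probe sets, and all 34 passed the filter on dim genes and stood among the 12630 genes tested. GPT2, a mitochondrial alanine transaminase, was not listed in the platform annotation. MARS, the methionyl-tRNA synthetase, had only probe sets that the annotation assigns to another gene as well, so neither is given a value. Synthetases are named by their older symbols (WARS, AARS, GARS, SARS, EPRS, NARS and YARS), which RefSeq now ends in 1.

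RNA came from A549, a human lung adenocarcinoma line, made into 3 stable lines by lentiviral transfer. Each line carried a tetracycline-inducible short hairpin RNA: shNTC is a non-targeting control, and shCNOT3-1 and shCNOT3-2 target CNOT3 at different sequences. CNOT3 is a subunit of CCR4-NOT, the complex that removes poly(A) tails from mRNA. All lines were grown in the same serum-containing medium, without doxycycline (DOX) or with DOX at 1 ug/ml for 72 hours, and 1 array was run for each line and DOX state. Whether each line is 1 clone or a pool is not stated in the labels. The question asked of these genes was how each line changed with DOX, and whether knockdown of CNOT3 differed from the control hairpin.

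ATF4 is a transcription factor whose mRNA is translated better when the initiation factor eIF2 is phosphorylated, as happens when amino acids run short or the endoplasmic reticulum is stressed. It pairs with C/EBP proteins and switches on genes that make, import and charge amino acids, together with regulators that feed back on the response. In lung adenocarcinoma cells this programme is known for supplying serine, glycine and glutathione. Its activity is set largely at translation, so the level of ATF4 mRNA is only 1 part of it.

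The lines behaved as labelled at the target. DOX took CNOT3 intensity from 227 to 81.9 in shCNOT3-1 (36.1% left) and from 228 to 46.9 in shCNOT3-2 (20.5% left), and it stayed at 178 and 166 in shNTC (93.4% left). The reading of 46.9 lies under the filter level on dim genes, so how much was left in shCNOT3-2 is uncertain. Of the epithelial markers KRT8, KRT18, EPCAM and CDH1, 4 of 4 lay above the filter level, an intensity of 61.4, and their sum was 82662 to 93938. For fibroblast markers 2 of 5 did (sum 567 to 761 on the knockdown arrays, 474 to 638 on the others), for leukocyte markers 1 of 3 (269 to 337 and 209 to 308) and for endothelial markers 1 of 3 (227 to 275 and 144 to 362). Of the defining genes, PTPRC read 15.6 to 38.0 and CDH5 2.29 to 17.3, both under the filter level. CD14, the leukocyte marker above that level, read 144 to 265, with a knockdown difference of -0.083 (unadjusted p = 0.807 in limma). PECAM1, the endothelial marker above that level, read 277 without and 227 with DOX for shNTC, 149 and 236 for shCNOT3-1, and 107 and 206 for shCNOT3-2. The knockdown difference of PECAM1 was 0.79 on the log2 scale (unadjusted p = 0.0224 and adjusted p = 0.266 in limma), in the directions of the members that were higher. COL1A1, a fibroblast marker, gave -0.45 in shNTC, 0.59 and 0.14 (unadjusted p = 0.170 in limma). EPCAM, a small part of the epithelial sum, read 219 without and 372 with DOX in shNTC. It read 184 and 132 in shCNOT3-1, and 306 and 237 in shCNOT3-2. Its log2 change in the knockdown lines beyond that in shNTC was -1.18 (unadjusted p = 0.0371 in limma). The same value was 0.013 for KRT8, -0.015 for KRT18 and -0.25 for CDH1. For ACTB the 3' probe set over the 5' one, a sign of RNA integrity, gave 1.42 and 1.45 on the knockdown arrays, against 1.33 and 1.36 in the same lines without DOX and 1.58 and 1.47 in shNTC. For GAPDH this ratio went from 0.98 to 1.03 with DOX in shCNOT3-1, but from 1.09 to 1.05 in shCNOT3-2 and from 0.98 to 0.966 in shNTC. The part of these markers and ratios in the values of the members was not tested.

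Promoters are described first, since ATF4 and C/EBP proteins bind a shared element in many of these genes, but the element was chosen after expression values had been seen. RefSeq (GRCh38.p14) promoters, from 250 bases before to 50 after a start site, were at hand for 28 of the 36 genes, which had 44 start sites in all. The core of that element, TGATGNAA on either strand, was in 8 of the 44, or 18.2%, and in 3.62% of all 35116 promoters of this length. A match is a description of letters and not a measured binding site, and other stretches of the genes were not searched. Of 5 forms of the element tried, TGATGNAA was chosen after their shares were seen, and TGATGNAAN gave 18.2% and 3.61%. The stricter TGATGCAA was in 11.4% of the members' promoters and 0.866% of all, TGATGAAAC in 2.27% and 0.225%, and ATTGCATCA in 0% and 0.236%. The matches of the 7 measured genes follow, 5′ to 3′ along the gene's strand, with the match in capitals. Where the capitals begin with TT, the element lies on the opposite strand.

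CHAC1 (chr15:40953246-40953285, plus strand): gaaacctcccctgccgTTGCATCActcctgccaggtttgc
ASNS (chr7:97872453-97872492, minus strand): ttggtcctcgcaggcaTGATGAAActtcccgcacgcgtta
CEBPG (chr19:33374055-33374094, plus strand): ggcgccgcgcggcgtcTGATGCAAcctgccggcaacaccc
SLC3A2 (chr11:62881720-62881748, plus strand): taatgtgcaggactccTTACATCAgctcc
GARS (chr7:30594829-30594868, plus strand): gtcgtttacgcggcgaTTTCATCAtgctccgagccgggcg
AARS (chr16:70289670-70289709, minus strand): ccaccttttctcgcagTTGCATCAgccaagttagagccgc
NARS (chr18:57621799-57621838, minus strand): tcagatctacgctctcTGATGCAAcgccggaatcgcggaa

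The match began at -209 in CHAC1, -187 in AARS, -68 in ASNS, -42 in CEBPG and -33 in GARS, and at 14 in NARS and 37 in SLC3A2, with the annotated start as 0. MARS, which has no value here, held the remaining match. Only CHAC1 of these 7 was among the members that differed most with knockdown. The 3 genes that were at least 1.5-fold higher with DOX in both knockdown lines are shown with their whole promoter, and only CHAC1 holds the letters searched.

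CTH (chr1:70411018-70411317, plus strand): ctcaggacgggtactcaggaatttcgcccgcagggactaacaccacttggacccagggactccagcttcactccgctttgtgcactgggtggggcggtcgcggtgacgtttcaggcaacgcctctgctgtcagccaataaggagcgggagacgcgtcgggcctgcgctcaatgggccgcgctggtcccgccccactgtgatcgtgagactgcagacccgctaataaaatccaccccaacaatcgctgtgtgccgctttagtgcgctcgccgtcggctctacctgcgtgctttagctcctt
CHAC1 (chr15:40953221-40953520, plus strand): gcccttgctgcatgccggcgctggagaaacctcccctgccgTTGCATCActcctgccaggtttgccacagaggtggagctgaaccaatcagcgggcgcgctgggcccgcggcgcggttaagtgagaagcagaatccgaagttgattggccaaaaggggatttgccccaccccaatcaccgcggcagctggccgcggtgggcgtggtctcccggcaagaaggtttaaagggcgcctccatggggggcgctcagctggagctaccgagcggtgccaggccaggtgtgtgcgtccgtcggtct
SESN2 (chr1:28259268-28259567, plus strand): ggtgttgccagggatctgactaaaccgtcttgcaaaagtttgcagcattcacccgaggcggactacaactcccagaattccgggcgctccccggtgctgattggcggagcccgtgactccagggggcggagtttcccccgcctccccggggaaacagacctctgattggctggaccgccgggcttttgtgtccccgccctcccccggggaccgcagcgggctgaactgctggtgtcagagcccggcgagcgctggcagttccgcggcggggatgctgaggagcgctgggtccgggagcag

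With knockdown, the members highest over their uninduced level were CTH and CHAC1, enzymes of cysteine and glutathione metabolism, and SESN2, a stress effector, while CBS, the other cysteine enzyme, had the lowest value of the 34 (-0.46). CTH, CHAC1 and SESN2 were at least 1.5-fold higher in both shCNOT3 lines, 3 of 34 members against 3.25% of all genes tested, and 0 of 34 were that much lower in both, against 2.68%. In limma, 0 of 34 members passed the threshold of 0.05 on the adjusted p, where 0.222% of all genes did. At an unadjusted p under 0.05, 7 members were higher (7.45% of all genes) and 0 lower (7.08%). These 7 were CTH, CHAC1, SESN2, DDIT4, TRIB3, SHMT2 and CEBPB, and all 7 were lower with DOX in shNTC. The knockdown difference averages the DOX changes of both hairpins against CNOT3 (n = 2), in log2 of intensity plus 1, and its SE comes from a model of all 6 arrays. That model has no DOX term, so the DOX change of shNTC counts as spread, together with the gap between the hairpins. Its p-values are therefore not a test of knockdown against the control hairpin. A separate fit below makes that comparison, but it cannot measure the spread of the single shNTC pair. The arrays are single, so p-values measure the spread between these arrays only, and in a bulk sample less RNA per cell and fewer cells carrying it cannot be told apart.

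**Figure D1:**
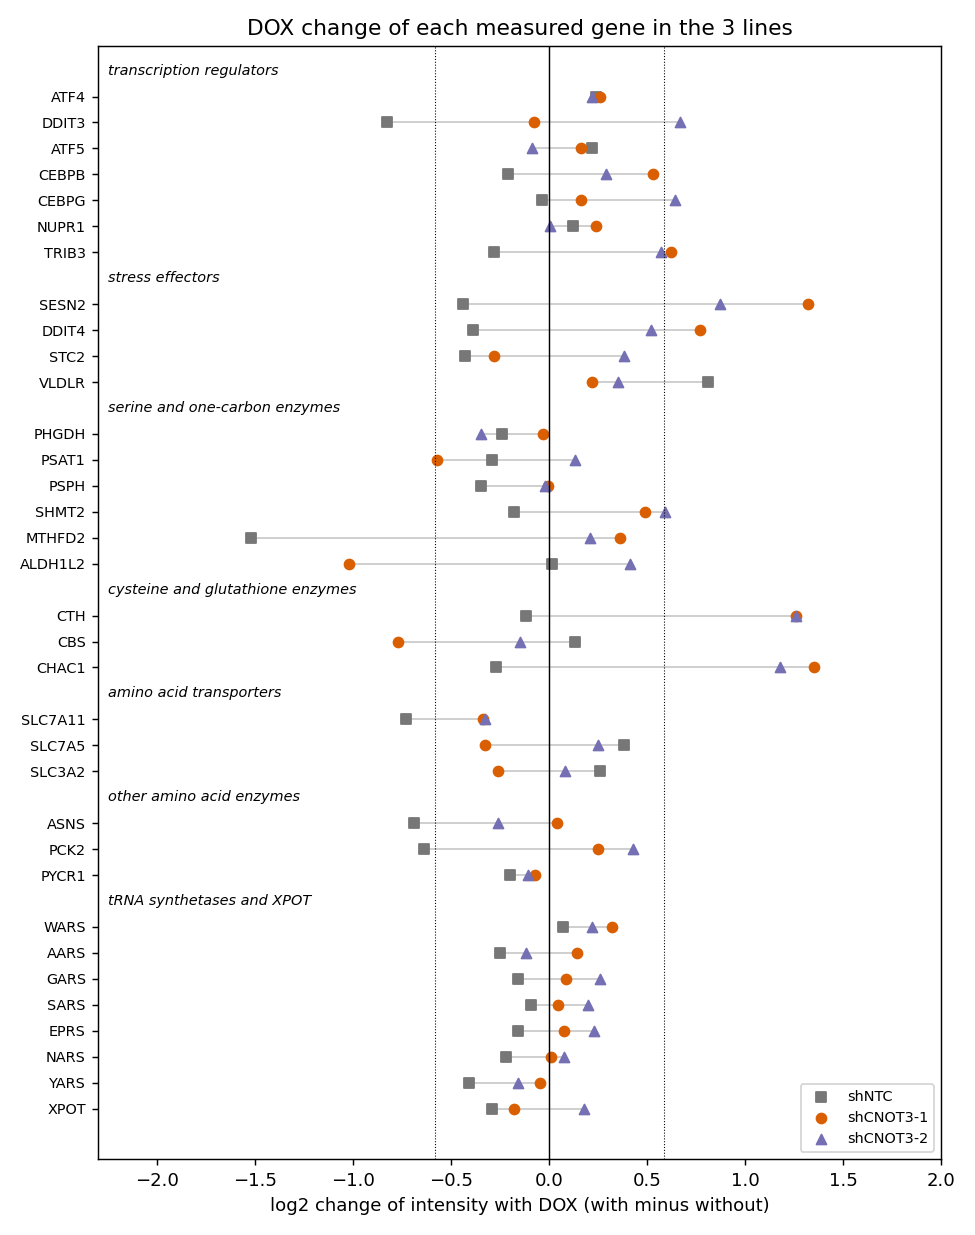
Log2 change of intensity with DOX (x axis) of each of the 34 measured genes (y axis, by role) in shNTC (squares), shCNOT3-1 (circles) and shCNOT3-2 (triangles), 1 pair of arrays per point, with dotted lines at 1.5-fold. CTH, CHAC1 and SESN2 lie past 1.5-fold in both shCNOT3 lines, ATF4 has nearly the same change in all 3 lines, and MTHFD2 is lowest in shNTC at -1.52.

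Intensities are given below without, then with, DOX. Among the transcription regulators, ATF4 read 10785 then 12755 in shNTC, 12505 then 14978 in shCNOT3-1 and 14126 then 16429 in shCNOT3-2. It was thus slightly higher with DOX in every line, by 0.24, 0.26 and 0.22 on the log2 scale. The change in the knockdown lines beyond that in shNTC was -0.003 ± 0.21 (SE, adjusted p = 0.997 in limma). Both knockdown arrays read highest of the 6, yet the uninduced array of shCNOT3-2 (14126) already lay above shNTC with DOX (12755).

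TRIB3, a pseudokinase that restrains ATF4, read 5541 then 4578 in shNTC, 5281 then 8098 in shCNOT3-1 and 5210 then 7725 in shCNOT3-2. The uninduced arrays lay within 0.089 of each other on the log2 scale, and both knockdown arrays lay above the other 4. The knockdown difference was 1.51-fold (0.59 ± 0.034 SD on the log2 scale, n = 2). The limma adjusted p of 0.157 rests on a larger spread, the model SE of 0.16, and not on this SD of the 2 hairpins. A second TRIB3 probe set gave 0.47 and 0.83 in the knockdown lines and 0.14 in shNTC.

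CEBPB, a C/EBP protein that dimerizes with ATF4, read 14250 then 12330 in shNTC, 14205 then 20504 in shCNOT3-1 and 13540 then 16609 in shCNOT3-2. Here too both knockdown arrays were highest, with a log2 difference of 0.41 ± 0.17 (SD, n = 2, model SE 0.14, limma adjusted p = 0.222). CEBPG, another partner of ATF4, was 0.16 and 0.64 higher in the knockdown lines and -0.039 in shNTC, but a second probe set gave 0.092, -0.27 and -0.078.

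DDIT3, or CHOP, a factor that ATF4 induces under lasting stress, did not follow TRIB3. It read 623 then 350 in shNTC, 379 then 360 in shCNOT3-1 and 621 then 986 in shCNOT3-2. The hairpins thus differed, with -0.077 in shCNOT3-1 and 0.67 in shCNOT3-2, and the uninduced arrays alone spanned 0.71. ATF5 and NUPR1, stress-induced nuclear factors, gave knockdown means of 0.036 and 0.12. For ATF5, other probe sets above the filter level gave -1.29 and 0.43, so its direction is not settled.

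Of the stress effectors, SESN2, a leucine sensor that holds back the growth kinase mTORC1, read 249 then 184 in shNTC, 144 then 361 in shCNOT3-1 and 181 then 331 in shCNOT3-2. Both knockdown arrays were above the other 4, and the difference was 2.13-fold (1.09 ± 0.32 SD on the log2 scale, model SE 0.29, limma adjusted p = 0.148). Its second probe set gave 1.47 in shCNOT3-1 but -0.14 in shCNOT3-2, and 0.38 in shNTC, so only the first hairpin is supported by both.

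DDIT4, or REDD1, which also restrains mTORC1, read 9634 then 7369 in shNTC, 9692 then 16579 in shCNOT3-1 and 11552 then 16562 in shCNOT3-2. The knockdown arrays were alike and above the rest, at 1.57-fold (0.65 ± 0.18 SD on the log2 scale, model SE 0.16, limma adjusted p = 0.129). DDIT4 had 1 probe set, so no second reading was at hand.

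STC2, a secreted glycoprotein, was -0.28 and 0.38 in the knockdown lines and -0.43 in shNTC. VLDLR, a lipoprotein receptor, went from 581 to 1020 in shNTC, 878 to 1021 in shCNOT3-1 and 846 to 1075 in shCNOT3-2. With DOX the 3 lines were close, and the larger step in shNTC began from the lowest uninduced reading.

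**Figure D2:**
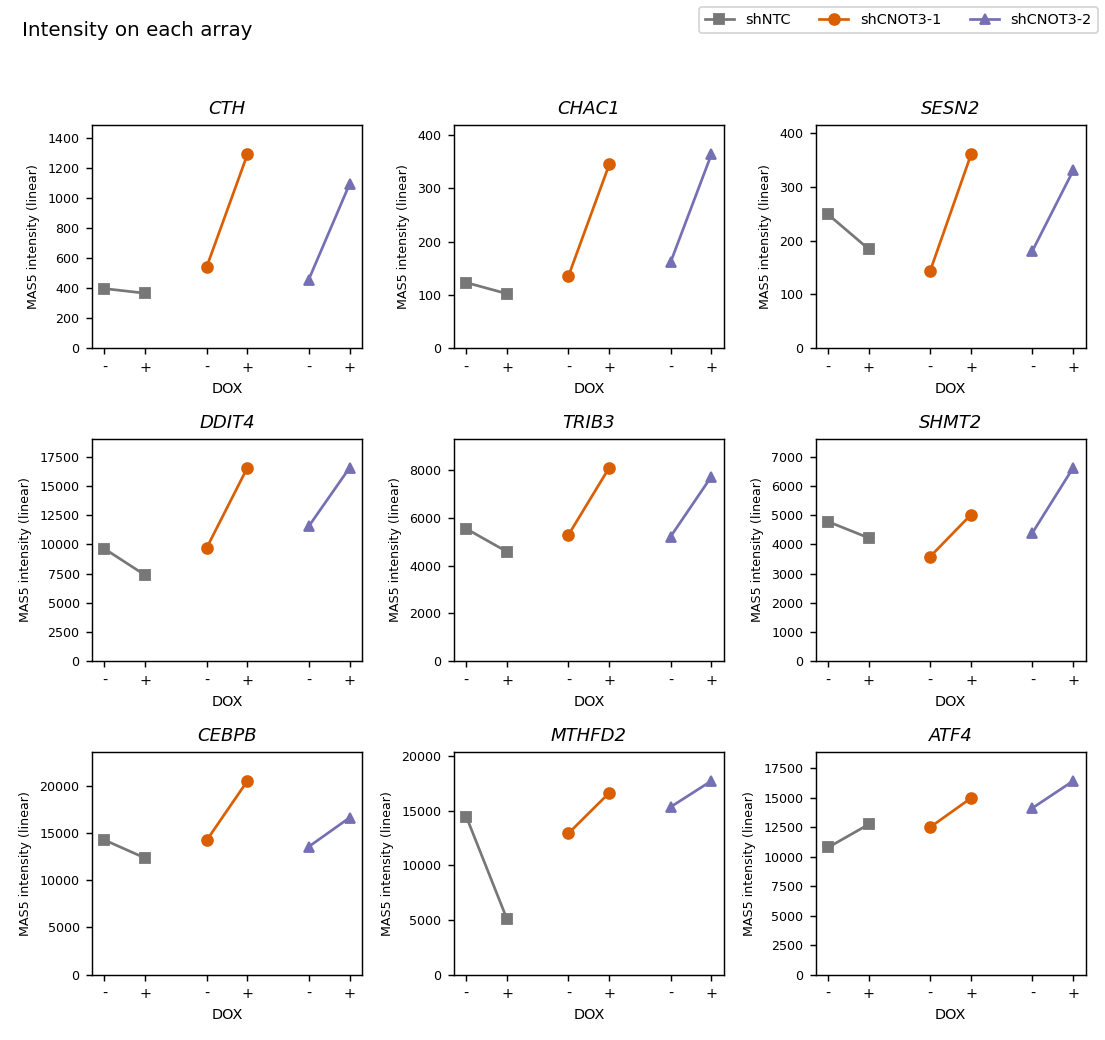
MAS5 intensity on a linear scale from 0 (y axis) on each of the 6 arrays for 9 genes, with lines joining the array without DOX (-) and with DOX (+) of each stable line. For CTH, CHAC1, SESN2, DDIT4, TRIB3, SHMT2 and CEBPB the line of shNTC points down and those of both shCNOT3 lines up, MTHFD2 reads 14458 and 5046 in shNTC, and ATF4 points up in all 3.

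Cysteine and glutathione enzymes held the 2 largest differences of all members. CTH, or cystathionine gamma-lyase, releases cysteine in the last step of transsulfuration. It read 397 then 366 in shNTC, 540 then 1294 in shCNOT3-1 and 457 then 1095 in shCNOT3-2. The knockdown arrays lay far above the other 4, at 2.39-fold in each hairpin (1.26 ± 0.20 on the log2 scale, model SE). The limma adjusted p was 0.05000023, on the threshold but not under it. A second CTH probe set gave 2.00 and 1.28 in the knockdown lines and -0.13 in shNTC, in the same directions. The adjusted p of CTH ran from 0.0107 to 0.258 over 13 alternatives and was under the threshold in 7 of them. It was 0.0457 without shNTC, 0.158 without shCNOT3-1 and 0.112 without shCNOT3-2.

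CHAC1, which breaks glutathione down inside the cell and is a close marker of ATF4 activity, read 123 then 102 in shNTC, 135 then 345 in shCNOT3-1 and 161 then 364 in shCNOT3-2. Both knockdown arrays stood well above the rest, at 2.40-fold (1.26 ± 0.12 SD on the log2 scale, n = 2, model SE 0.30, limma adjusted p = 0.114). CBS, which makes the cystathionine that CTH cleaves, gave -0.77 and -0.15 in the knockdown lines and 0.13 in shNTC. Its other probe sets gave means of 0.0094 and 0.99, and the last of these also 2.74 in shNTC, so CBS has no settled direction.

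Of the 6 serine and one-carbon enzymes, 2 were higher in both knockdown lines (SHMT2 and MTHFD2, 33.2% of all genes). In both lines 2 were lower (PHGDH and PSPH, 26.9%), so neither count stands out from all genes. PSPH was lower by only -0.0074 and -0.021, and its other probe sets gave means of 0.059 and 0.61. PHGDH, PSAT1 and PSPH, which make serine from a glycolytic intermediate in that order, had knockdown means of -0.19, -0.22 and -0.014. PSAT1 differed between hairpins, at 15036 and 10104 in shCNOT3-1 and 16330 and 17867 in shCNOT3-2, and its second probe set gave the same signs (-0.45 and 0.13).

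SHMT2, the mitochondrial enzyme that splits serine into glycine and a one-carbon unit, was higher in both knockdown lines. It read 4780 then 4221 in shNTC, 3586 then 5023 in shCNOT3-1 and 4395 then 6630 in shCNOT3-2, with the knockdown arrays highest. The difference was 1.45-fold (0.54 ± 0.076 SD on the log2 scale, model SE 0.16, limma adjusted p = 0.193). Of its other probe sets, 1 gave 0.99 and 0.15 and the other 0.065 and 0.15 in the knockdown lines.

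MTHFD2, the next mitochondrial enzyme of that route, read 14458 then 5046 in shNTC, 12920 then 16622 in shCNOT3-1 and 15330 then 17717 in shCNOT3-2. The array of shNTC with DOX stood apart from the other 5, which lay between 12920 and 17717. Change in the knockdown lines beyond shNTC was therefore 3.49-fold (SE 0.22 on the log2 scale, limma adjusted p = 0.0907), while the knockdown lines themselves gave only 0.36 and 0.21. This SE rests on the gap between the hairpins and the variance prior, and the spread of shNTC is not measured. A second MTHFD2 probe set gave -0.83 in shNTC, and 0.57 and 0.047. ALDH1L2, a mitochondrial enzyme that uses one-carbon units to make NADPH, went from 467 to 230 in shCNOT3-1 and from 362 to 480 in shCNOT3-2, opposite ways.

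Of the 3 amino acid transporters, 0 were higher (33.2% of all genes) and 1 was lower (26.9%) in both knockdown lines by the brightest probe set. In limma 0 had an unadjusted p under 0.05 (7.45% of all genes higher and 7.08% lower). Counts of so few genes cannot be told apart from these shares. SLC7A11, which imports cystine in exchange for glutamate, was lower with DOX in all 3 lines: 10510 then 6330 in shNTC, 9986 then 7900 in shCNOT3-1 and 11575 then 9209 in shCNOT3-2. The knockdown mean was -0.33 and that of shNTC -0.73. Another bright SLC7A11 probe set also gave lower values in every line (-1.08 in shNTC, -0.99 and -0.41), and a dimmer one 0.061, 0.25 and 0.78. SLC7A5 and SLC3A2, the chains of a leucine transporter, ran in parallel: SLC7A5 gave 0.38 in shNTC, -0.33 in shCNOT3-1 and 0.25 in shCNOT3-2, and SLC3A2 gave 0.26, -0.26 and 0.081.

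ASNS, asparagine synthetase, read 6633 then 4117 in shNTC, 7216 then 7417 in shCNOT3-1 and 8557 then 7170 in shCNOT3-2. It was thus lowest in shNTC with DOX and lay between 6633 and 8557 on the other 5 arrays. PCK2, the mitochondrial enzyme that makes phosphoenolpyruvate, had the same low array, at 1713 and 1100 in shNTC, and was 1640 and 1952 in shCNOT3-1 and 1675 and 2262 in shCNOT3-2. PYCR1, which completes proline synthesis, gave -0.20, -0.073 and -0.11, and was the 1 member with both knockdown arrays below the other 4 (12.8% of all genes).

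The tRNA synthetases load amino acids on their tRNAs. Of 7 measured synthetases, 5 were higher in both knockdown lines (33.2% of all genes) and 1 lower in both (26.9%), with knockdown means from -0.10 (YARS, tyrosyl) to 0.27 (WARS, tryptophanyl). WARS read 2179 then 2289 in shNTC, 2252 then 2809 in shCNOT3-1 and 2154 then 2518 in shCNOT3-2, and a second probe set gave 0.39 and 0.31 with 0.14 in shNTC. GARS (glycyl) gave 0.17, EPRS (glutamyl and prolyl) 0.15, SARS (seryl) 0.12, NARS (asparaginyl) 0.043 and AARS (alanyl) 0.011. In shNTC 6 of the 7 were lower with DOX (51.2% of all genes), from -0.094 for SARS to -0.41 for YARS. Further probe sets were higher there, at 0.20 and 0.27 for EPRS, the former nearly as bright as the one used, and at 1.61 for YARS. Other probe sets gave lower means for EPRS (-0.28 and -0.082) and SARS (-0.017). XPOT, which exports tRNA from the nucleus, gave -0.18 and 0.18, and -0.29 in shNTC. A second XPOT probe set was lower in every line, at -0.47 and -0.26, and -0.42 in shNTC. In limma none of these 8 had an unadjusted p under 0.05 (7.45% of all genes higher and 7.08% lower), the lowest being 0.155 for WARS.

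In the control line itself most members were lower with DOX, though not always opposite to the knockdown lines. PHGDH, PSPH, SLC7A11, PYCR1 and YARS were lower in every line. With DOX, 25 of 34 were lower in shNTC, against 51.2% of all genes, and the member median was -0.21, against -0.011 over all genes. At least 1.5-fold lower were 5 members, MTHFD2, DDIT3, SLC7A11, ASNS and PCK2 (7.86% of all genes), and 1 was higher, VLDLR (6.47%). In shCNOT3-1 the member median was 0.081 (0.047 over all genes), with 5 at least 1.5-fold higher (11.7%) and 2 lower, ALDH1L2 and CBS (10.5%). In shCNOT3-2 the median was 0.22 (0.019), with 6 higher (11.6%) and 0 lower (9.94%). DDIT3, CEBPG and SHMT2 passed 1.5-fold in shCNOT3-2 only, and TRIB3 and DDIT4 in shCNOT3-1 only, which was not tested as a difference. For TRIB3 (1.53-fold in shCNOT3-1 and 1.48-fold in shCNOT3-2) and SHMT2 (1.4-fold and 1.51-fold) the hairpins lay close, on either side of the cutoff.

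**Figure D3:**
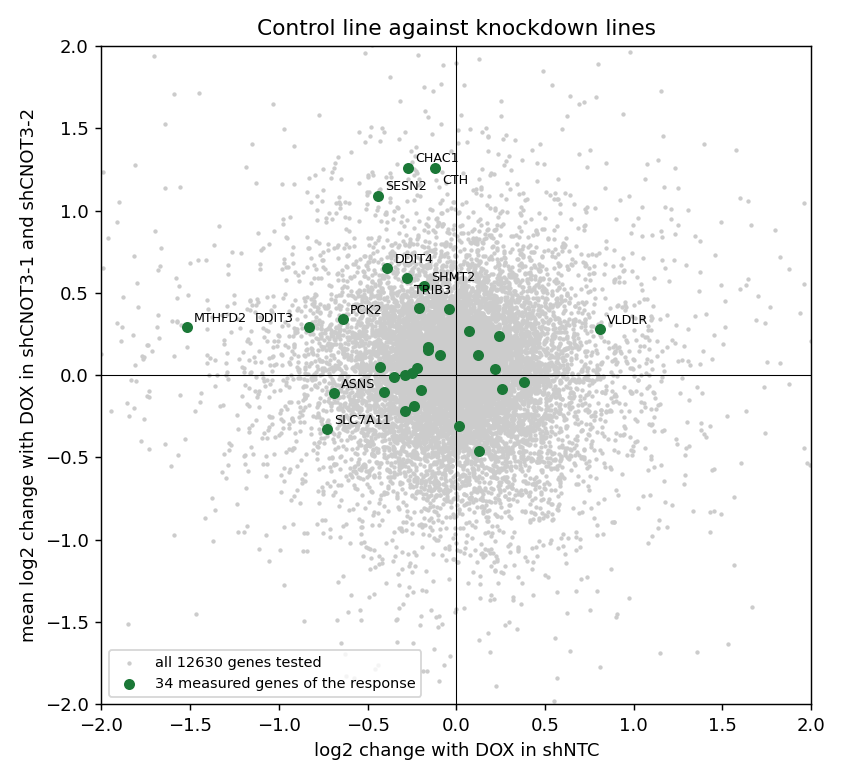
Log2 change with DOX in shNTC (x axis) against the mean log2 change in the 2 shCNOT3 lines (y axis) for the 34 measured genes (green) and all 12630 genes tested (grey), with genes outside ±2 not drawn. Most green points lie left of 0, and CTH, CHAC1 and SESN2 stand highest at 1.26, 1.26 and 1.09.

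Counted by sign alone, 18 of 34 members were higher in both knockdown lines (33.2% of all genes) and 6 lower in both (26.9%). Of the 18, 14 were also lower in shNTC (17.5% of all genes), and 1 member, CBS, had the reverse pattern (13.5%). Both knockdown arrays lay above the other 4 for 14 members (16% of all genes): ATF4, CEBPB, TRIB3, SESN2, DDIT4, VLDLR, SHMT2, MTHFD2, CTH, CHAC1, PCK2, WARS, GARS and NARS.

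Since shNTC also differed with DOX, the change of the knockdown lines beyond it was fitted separately. Its median over the members was 0.31, against 0.048 over all genes, where knockdown alone gave 0.12 and 0.034. In limma 0 of 34 members passed on the adjusted p, and 0% of all genes did. Unadjusted, 10 were higher (4.48% of all genes) and 0 lower (3.92%): CTH, CHAC1, SESN2, DDIT4, TRIB3, SHMT2 and CEBPB, and with them MTHFD2, DDIT3 and PCK2, which owe most of the difference to shNTC. After MTHFD2 the lowest adjusted p was that of DDIT4 (1.03 ± 0.24 SE on the log2 scale, adjusted p = 0.294 in limma). This fit has 1 residual degree of freedom.

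Without DOX the lines were close for these genes. The range between the 3 uninduced arrays had a median of 0.21 over the members and 0.30 over all genes on the log2 scale, and was largest for ALDH1L2 (0.89). For CHAC1, CTH and SESN2 the uninduced readings ran from 123 to 161, 397 to 540 and 144 to 249, below both knockdown arrays in each case.

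Where a gene had several probe sets, they did not always give the same sign. For 19 members there were 27 further probe sets, 23 of them above the filter level, and 13 of the 23 had the sign of the brightest one in the knockdown mean. CTH, TRIB3, SHMT2, MTHFD2, WARS and PSAT1 kept their sign in every further probe set above that level, while ATF5, CBS, SLC7A11, CEBPG, PSPH, EPRS and SARS did not.

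**Figure D4:**
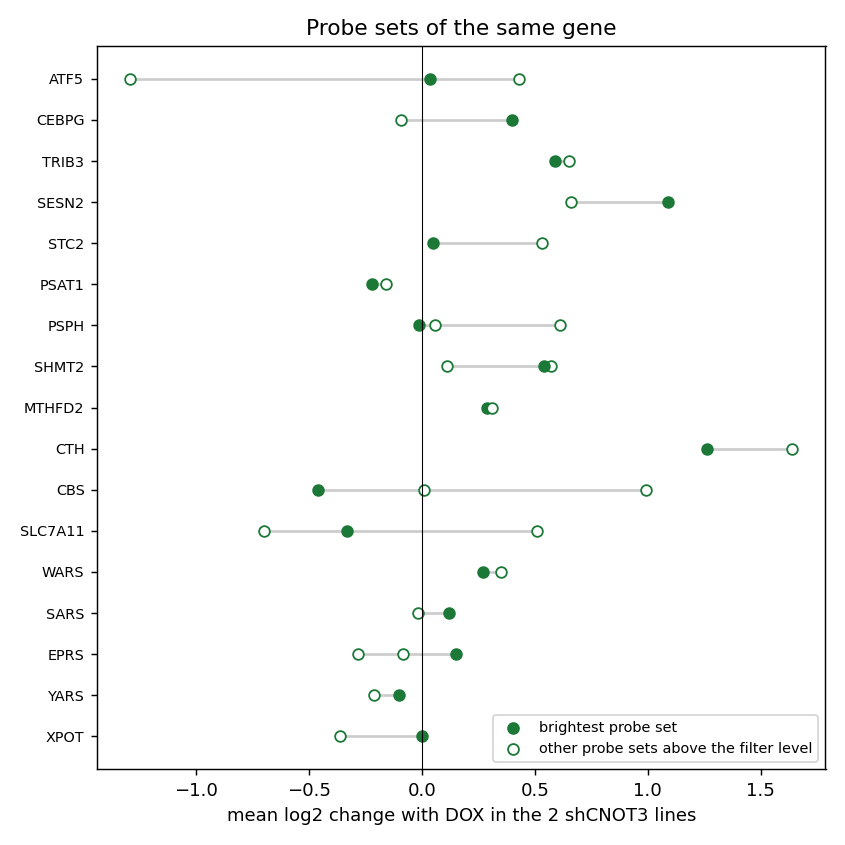
Mean log2 change with DOX in the 2 shCNOT3 lines (x axis) for each probe set above the filter level, for the 17 genes with more than 1 such probe set (y axis); filled circles are the brightest probe set of a gene and open circles the others. Both CTH probe sets lie past 1, those of TRIB3 and MTHFD2 nearly coincide, and those of ATF5, CBS and SLC7A11 lie on both sides of 0.

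Other genes of the pathway were taken from lists set beside the members. Of 16 genes upstream of ATF4 (the eIF2 kinases and their cofactors, eIF2 and eIF2B subunits, and the PPP1R15 phosphatase subunits), 0 passed adjusted (0.222% of all genes) and 0 had an unadjusted p under 0.05 (7.45% higher and 7.08% lower). The lowest p values there were 0.218 for DELE1, 0.249 for EIF2B4 and 0.259 for EIF2S1, and the median was 0.00056. PPP1R15A, or GADD34, which turns the response off, gave -0.053 and 0.67 in the knockdown lines and -0.41 in shNTC.

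Of 18 further response genes and transporters tested, with 3 more too dim, 0 passed adjusted, 2 were higher unadjusted (7.45% of all genes) and 0 lower (7.08%). GDF15, a stress-induced secreted factor, read 6228 then 4263 in shNTC, 6225 then 12446 in shCNOT3-1 and 5634 then 10299 in shCNOT3-2. It thus had the pattern of TRIB3 and DDIT4, with a log2 difference of 0.93 ± 0.19 (SE, adjusted p = 0.0811 in limma). SLC38A2, a glutamine carrier, gave 0.39 and 0.33 in the knockdown lines and 0.13 in shNTC, and other probe sets gave 0.35 and 0.42 in shNTC. GOT1, an aspartate transaminase, gave 0.40 (unadjusted p = 0.0504 in limma).

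Of 9 further one-carbon and glutathione enzymes tested, 0 passed adjusted, with 1 higher (7.45% of all genes) and 1 lower (7.08%) unadjusted. GSS, glutathione synthetase, gave 0.78 and 0.26, and CHAC2, a relative of CHAC1 with a steadier role in glutathione breakdown, -0.67 and -0.23. CHAC2 was also lower in shNTC (-0.19), close to its change in shCNOT3-2. Its change beyond shNTC was -0.26 (unadjusted p = 0.489 in limma). CHAC1 was higher in both knockdown lines, and the limma adjusted p for knockdown was 0.330 for CHAC2 and 0.114 for CHAC1. Of 11 further cytosolic synthetases and scaffold proteins, 0 were higher (7.45% of all genes) and 1, RARS1, lower (7.08%) unadjusted, and the median was 0.10. Of 15 mitochondrial synthetases 0 were higher (7.45%) or lower (7.08%) by unadjusted p, the median was 0.086, and WARS2 had the lowest p (0.0595, with 0.40 and 0.62 in the knockdown lines).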

How the data were processed

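Values were deposited as linear probe set intensity, which MAS5 produced per the submitters' processing notes; its settings and version are not given in the sources used. Trimmed by 2% at either end, the mean was 500.1 on every array, and 1 was the lowest intensity. There is no depth on arrays, and having only 6 limits precision. Symbols came from the platform annotation, updated to current RefSeq ones, and 41091 of 54675 probe sets had 1 gene. A gene's brightest probe set was used. Genes were tested where mean log2(intensity + 1) reached 5.96, the median over probe sets. Tests used limma 3.58.1 in R 4.3.3, 2-sided, with an intensity trend in the prior and Benjamini-Hochberg adjustment over 12630 genes. The fit had a block for the line, since the labels pair each line with and without DOX, and a knockdown term (2 residual degrees of freedom). A second fit added DOX. On simulated data the knockdown fit recovered 28% of 2-fold and 83% of 4-fold changes on the adjusted p, and 5.12% of its calls were false. That no member passed thus says little about changes near 2-fold. Members, lists and the naming rule (intensities for ATF4 and for members past 1.5-fold in both knockdown lines or under an unadjusted p of 0.05, and up to 3 genes per other list) were chosen with earlier results of these data known. The filter level and a prior without robust estimation were kept as designed after counts of calls under other levels and a robust prior had been seen; those settings are given among the alternatives. The count of arrays above the other 4, the motif and the intensities of further members were chosen after values were seen. Other settings tried were the scaling, the constant added, dim-gene filters, averaging the probe sets of each gene, the variance prior, a fit without the block, and fits that leave out a line. Figures used matplotlib 3.10.9.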

Additional observations from a re-analysis of the deposited data

How the results depend on the processing

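Over 13 alternatives the median change of the members kept its sign, for knockdown and beyond shNTC, and so did 421 of 442 single values. Much of this was fixed in advance. The filters, the variance prior and leaving out shNTC cannot alter the value of a member, only its p. All 21 values that turned came from the other settings, so the share kept overstates how stable the signs are. The count of members that passed for knockdown was 0 and became 1 (CTH) with an added constant of 16 and with a stricter filter on dim genes, 1 (CTH) too with 3 settings chosen after seeing the data (a robust prior, and filters at the median of all values or of 1-gene probe sets), 4 (TRIB3, DDIT4, CTH and CHAC1) with no replicate block for the line, and 0 to 1 when each line was left out, CTH passing without shNTC. Beyond shNTC it was 0, and 1 (MTHFD2) with the filter at the median of 1-gene probe sets and 5 (TRIB3, DDIT4, MTHFD2, CTH and CHAC1) with no replicate block. Over all genes 28 passed for knockdown, and 3 with no filter, 54 with the stricter filter, 6 with the mean of probe sets, 0 with no intensity trend, 191 with no block (and 251 beyond shNTC, where 0 passed), 57 without shNTC, 62 without shCNOT3-2, 67 with the robust prior and 56 (6 beyond shNTC) with the filter at the median of 1-gene probe sets. Signs turned for 14 members, CBS (-0.46), ALDH1L2 (-0.31), DDIT3 (0.29) and PSAT1 (-0.22) among them. With quantile normalization XPOT gave 0.0023. With the mean of probe sets ATF5 gave -0.56, PSPH 0.22, CBS 0.18 and EPRS -0.071, their probe sets having opposite signs. With no block ATF5 gave -0.09, PSPH 0.092, ALDH1L2 0.041, ASNS 0.19, YARS 0.029 and XPOT 0.12. Leaving out lines gave -0.089 to 0.16 for ATF5, -0.57 to 0.13 for PSAT1, -1.02 to 0.41 for ALDH1L2, -0.33 to 0.25 for SLC7A5, -0.26 to 0.081 for SLC3A2, -0.12 to 0.14 for AARS, -0.18 to 0.18 for XPOT, -0.077 to 0.67 for DDIT3, -0.28 to 0.38 for STC2 and -0.26 to 0.04 for ASNS, which are the values of single hairpins. The cause of the other shifts was not tested. With a shCNOT3 line left out the knockdown is 1 pair of arrays, and no fit beyond shNTC could be made with any line left out.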

Other observations

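RARS1, the arginyl-tRNA synthetase, was read by 1 probe set that took 2 levels. Intensity was 2757 without DOX in shNTC and 2794 with DOX in shCNOT3-2, and 8158, 9822, 6576 and 9280 on the array of shNTC with DOX, both arrays of shCNOT3-1 and the uninduced array of shCNOT3-2. The log2 changes with DOX were 1.56 in shNTC, -0.58 in shCNOT3-1 and -1.73 in shCNOT3-2. Each was opposite in sign to the change of most members in that line. Beyond shNTC the change was -2.72 (unadjusted p = 0.000101 in limma). No second probe set was listed for this gene alone, and RARS1 was singled out after its values were seen.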
